A study of Mus musculus with 2 samples.

Results

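Immediate early genes were examined in the lens of the wild-type mouse embryo at E12.5, in 1 sample of lens fibers and 1 of lens epithelium. The genes were the 9 listed members Egr1, Dusp1, Fos, Jun, Junb, Ier2, Ier3, Atf3 and Btg2, and every probe whose platform gene symbol equals one of these names was taken. All 9 were found, with 10 probes in all (a pair for Junb and 1 for each of the other 8), among 19057 genes with a named probe. Both samples were total RNA, labelled with biotin and hybridised to a 1-colour Illumina bead array. Strain, number of embryos pooled and the method of separating fibers from epithelium were not stated in the sources used here. With 1 array per tissue there was no replicate, so no test was made and each ratio describes these 2 arrays. A difference in intensity cannot tell fewer cells of a type from less RNA per cell.

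Immediate early genes are transcribed within minutes of a stimulus, without new protein synthesis, and most of their mRNAs are short-lived. Growth factors reach them through the ERK kinase cascade, which activates ETS-family cofactors of the serum response factor SRF at a promoter element called the CArG box, and cyclic AMP and stress signals reach them through CREB and its relatives at the cyclic AMP response element (CRE). Many of their products are transcription factors, such as EGR1 and the FOS and JUN subunits of AP-1, and others, such as the phosphatase DUSP1, switch the kinases off again. In the lens, fibroblast growth factors act through ERK on both the proliferation of the epithelium and the differentiation of fibers.

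RefSeq promoter windows (GRCm38.p6, 250 bases before to 50 after the start of the gene) were matched by symbol for 7 of the 9 members. Egr1 and Ier2 had no window. The windows of Dusp1, Btg2 and Ier3, whose probes were above background, are shown with that of Fos, a classical immediate early gene whose probe was not. Capitals mark matches, on either strand, to the motifs searched: CRE (TGACGTCA), AP-1 (TGACTCA), EGR (GCGTGGGCG or GCGGGGGCG), ETS (CCGGAAGT), the CArG box and the TATA box (TATAAA). No marked match overlaps another in these windows.
Dusp1, chr17:26508423-26508722, minus strand: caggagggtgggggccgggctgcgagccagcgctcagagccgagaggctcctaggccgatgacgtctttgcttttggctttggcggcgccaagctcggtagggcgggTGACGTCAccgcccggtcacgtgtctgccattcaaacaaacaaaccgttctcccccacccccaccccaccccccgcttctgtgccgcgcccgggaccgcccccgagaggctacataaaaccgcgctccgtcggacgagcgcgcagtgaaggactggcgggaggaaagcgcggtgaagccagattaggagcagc
Btg2, chr1:134079106-134079405, minus strand: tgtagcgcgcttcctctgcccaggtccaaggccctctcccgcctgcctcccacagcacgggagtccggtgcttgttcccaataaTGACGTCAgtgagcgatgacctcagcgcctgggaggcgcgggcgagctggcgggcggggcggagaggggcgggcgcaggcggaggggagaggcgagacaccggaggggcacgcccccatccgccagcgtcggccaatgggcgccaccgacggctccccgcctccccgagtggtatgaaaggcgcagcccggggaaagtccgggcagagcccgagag
Ier3, chr17:35821463-35821762, plus strand: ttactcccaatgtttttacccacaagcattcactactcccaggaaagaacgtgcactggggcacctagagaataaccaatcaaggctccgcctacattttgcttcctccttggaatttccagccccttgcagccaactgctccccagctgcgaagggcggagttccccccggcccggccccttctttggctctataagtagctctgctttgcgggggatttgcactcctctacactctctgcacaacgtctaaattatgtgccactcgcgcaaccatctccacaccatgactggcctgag
Fos, chr12:85473640-85473939, plus strand: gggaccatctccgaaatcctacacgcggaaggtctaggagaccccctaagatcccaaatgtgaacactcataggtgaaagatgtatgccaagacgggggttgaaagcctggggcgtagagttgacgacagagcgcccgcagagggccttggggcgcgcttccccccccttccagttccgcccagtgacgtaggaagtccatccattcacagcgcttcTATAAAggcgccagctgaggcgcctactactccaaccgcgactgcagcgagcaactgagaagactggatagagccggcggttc

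A full CRE was found in the Dusp1 window, 143 to 136 bases before the start, and in the Btg2 window, 166 to 159 bases before it. The windows of the other 5 matched members held none. Of all 32851 promoter windows, 1.79% held a CRE. Fos held the letters TATAAA 33 to 28 bases before the annotated start. Junb held these letters at bases 1 to 6 counted from its annotated start, which is not the position seen in Fos. Of all windows, 13.6% held them on either strand. None of the 7 windows held the CArG box (1.63% of all windows), AP-1 (5.20%), EGR (3.47%) or ETS (3.89%) in the letters searched. Sites outside the windows, further upstream or elsewhere in the gene, were not searched, and Egr1 was not covered. The absence of a match therefore does not show that these genes lack such sites. Their content of G and C ran from 54.0% to 72.0%, against a median of 52.7% over all windows. A match describes these letters and is not evidence of binding.

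The authors deposited 1 whole-number intensity per probe and array, with background already subtracted. Values were quantile normalized, and a floor was set on each array at the 95th percentile of 1580 probes of genes taken to be silent in lens, namely keratin-associated proteins and the olfactory, vomeronasal and trace amine receptors. The floor was 32 on the fibers array and 44.5 on the epithelium array. Of the 9 members, 4 passed the floor of 1 array or both, against 33.9% of all named genes (6451 of 19057). On the fibers array 3 members, Dusp1, Btg2 and Ier3, were above it, on the epithelium array 2 members, Egr1 and Btg2, and only Btg2 was above it on both. Where both values passed their floors, the log2 ratio of fibers over epithelium was taken. Where only 1 did, the bright value was divided by the floor of the dim array, which gives a bound, worded as "at least".

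**Figure D1:**
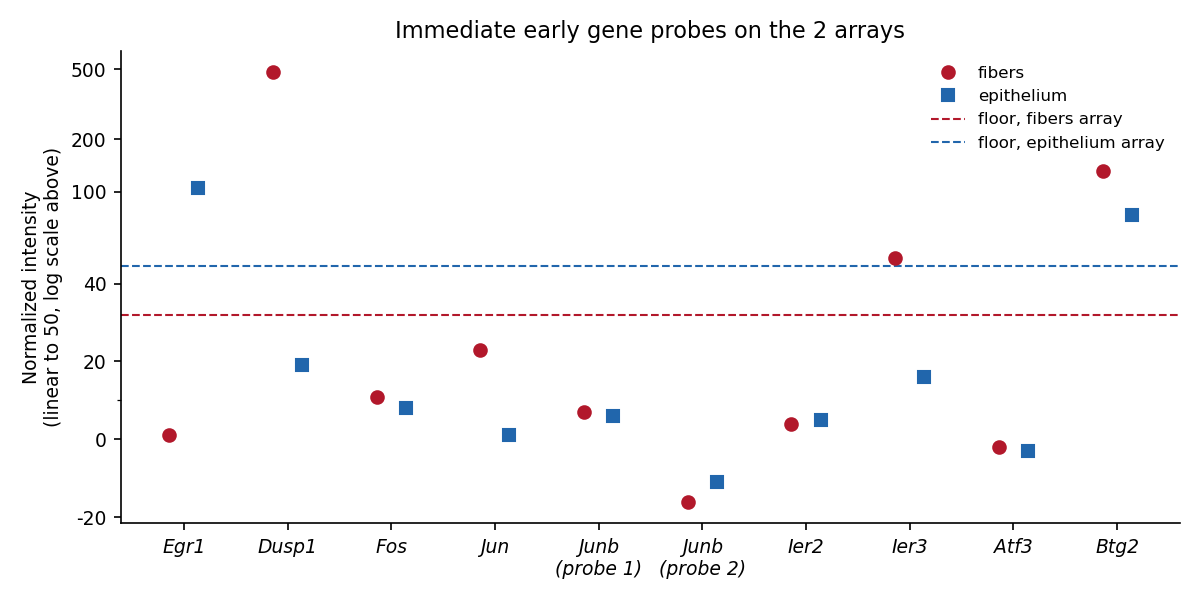
Quantile-normalized intensity (vertical axis, linear to 50 and logarithmic above) of the 10 probes of the 9 immediate early genes, with 1 point per array: red circles for fibers, blue squares for epithelium. Dashed lines are the floors, 32 for fibers and 44.5 for epithelium. Dusp1 stands out on the fibers array at 481.5, Egr1 passes the floor in epithelium alone, Btg2 passes it on both, and Fos, Jun, Junb, Ier2 and Atf3 lie below it on both.

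The measured members did not move one way. Dusp1 was higher in fibers, Egr1 was higher in epithelium, Btg2 read less than 2-fold higher in fibers, a difference lost when scaled to housekeeping genes, and Ier3 was barely above the floor in fibers. By the 2-fold rule Dusp1 alone (1 member) counted towards fibers and Egr1 alone (1 member) towards epithelium. Of all measured genes, 15.6% were 2-fold or more higher in fibers and 19.0% in epithelium. These 2 shares are not on an equal footing, here or in the lists below. Bounds towards epithelium divide by the lower floor (32 against 44.5), so they pass 2-fold at a lower intensity than bounds towards fibers. The median log2 ratio of the 4 measured members was 0.44, against 0 for all 6451 measured genes. Of these, 2796 were positive and 2868 negative, and 772 had no direction and were counted as 0. All 772 passed only the fibers floor and did not exceed the higher epithelium floor. Counting them as 0 places the median of all genes at 0, so it is a weak yardstick. Over the 2986 genes above both floors the median was -0.19. The members' median rests on only 4 genes, 3 of them bounds.

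Dusp1 encodes MKP-1, a nuclear dual specificity phosphatase that inactivates p38, JNK and ERK kinases. The gene lies at chr17:26505591-26508472 in the RefSeq table of GRCm38.p6. Its deposited intensity was 484 in fibers and 19 in epithelium, and after normalization 481.5 and 19, so only the fibers value passed its floor. In epithelium 16.1% of the silent probes read as high as Dusp1, a level inside the background. The bound was at least 10.8-fold higher in fibers (log2 3.44). Of the 1535 genes with a bound towards fibers, 14, Dusp1 included, had a bound this large (0.912%). None of the 1580 silent probes read as high in fibers. None had as large a bound either, which largely restates this, since the bound divides the fibers value by a fixed floor. Taken as a random sample, a count of 0 among 1580 allows a share of up to 0.190% (3 divided by 1580). The margin was small, since the brightest silent probe in fibers read 465.5 and the largest bound of a silent probe was 10.5-fold. Dusp1 was 2-fold or more higher in fibers under all 9 alternative settings that gave it a value, with log2 values from 2.12 to 4.10. These settings are not independent. Matching the 75th percentiles left the deposited values unchanged (scale factor 1), and averaging probes cannot change a gene with 1 probe.

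Btg2 encodes an antiproliferative protein that binds the CCR4-NOT deadenylase and is induced by p53. It lies at chr1:134074865-134079155. Its deposited intensity was 130 in fibers and 74 in epithelium, and the normalized values were 131 and 74, both above the floor. It was the only member whose ratio is not a bound. Of the silent probes, 8 (0.506%) read as high in fibers and 36 (2.28%) in epithelium. The ratio was 1.77-fold higher in fibers (log2 0.82), and 17.8% of the 2986 genes on both arrays had a log2 ratio this high or higher. The log2 ratio was little more than the standard deviation of 0.74 between probes of the same gene, pooled over 472 genes with several probes above the floor on both arrays. It was below the 0.84 standard deviation of the 32 silent probes that passed both floors. When fibers were scaled to put the housekeeping genes' median at 0, Btg2 had a log2 ratio of -0.04, so no direction is given for it.

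Ier3, also known as IEX-1, encodes a small protein that modulates apoptosis and ERK signalling, and lies at chr17:35821713-35822911. It was deposited at 46 in fibers and 16 in epithelium. The normalized value of 46.5 in fibers was above that array's floor, but was matched or exceeded by 41 silent probes (2.59%). Its epithelium value lay below the floor, with 19.3% of silent probes as high. Against the epithelium floor the bound was at least 1.04-fold, and with a common floor of 37.05 for both arrays it was at least 1.26-fold. No direction was left after scaling to housekeeping genes, and Ier3 was below the stricter floor at the 99th percentile. The value sits at the edge of what these arrays detect.

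Egr1 encodes a zinc finger transcription factor and is a classical target of ERK and SRF. The gene lies on chromosome 18, at 34861207 to 34864956 in GRCm38.p6. Its single probe was deposited at 1 in fibers and 106 in epithelium, and after normalization read 1 and 105.75. The fibers value was at the median of the silent probes, and the epithelium value was above the floor. Egr1 was at least 3.30-fold higher in epithelium (log2 -1.72), and at least 2.85-fold with the common floor of 37.05. Of the 1158 genes with a bound towards epithelium, 305 (26.3%) had a bound as large or larger, Egr1 included. In epithelium 18 of the 1580 silent probes (1.14%) read as high, and 10 (0.633%) had as large a difference in that direction. The silent probes passed 2-fold towards epithelium 32 times and towards fibers 6 times, where the lower fibers floor makes a bound towards epithelium easier to reach. With the floor at the 99th percentile of the silent probes, 110.5 in epithelium, Egr1 was below it on both arrays and had no ratio. In the other 8 settings with a value it was 2-fold or more higher in epithelium, with log2 values from -2.77 to -1.51. Some of these settings repeat others, as described for Dusp1.

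The AP-1 subunits were below the floor on both arrays. Fos, which pairs with JUN proteins in AP-1, read 11 in fibers and 8 in epithelium, below both floors. Of the silent probes, 20.9% read as high as Fos in fibers and 30.9% in epithelium. Jun, the main partner of FOS, read 23 in fibers and 1 in epithelium. Of the silent probes 9.49% read as high as Jun in fibers and 52.6% did in epithelium, so its higher value in fibers was not above background at the floor used. With the floor lowered to the 90th percentile, an alternative chosen after the data were seen, Jun passed it in fibers but had no direction against the epithelium floor of 28. Junb read 7 in fibers and 6 in epithelium on its brighter probe, and -16 in fibers and -11 in epithelium on the other. Even the brighter probe was matched by 31.1% of silent probes in fibers and 36.1% in epithelium. Both Junb probes lay below the floor on both arrays.

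The last members below the floor were Atf3, a member of the ATF/CREB family that is induced by stress, and Ier2, a nuclear protein of the immediate early response. Atf3 read -2 in fibers and -3 in epithelium, and 68.0% of silent probes read as high in fibers and 75.6% in epithelium. Ier2 read 4 in fibers and 5 in epithelium, where the shares were 40.1% in fibers and 38.4% in epithelium. Both genes lay within the range of the silent probes on both arrays. For all 5 members below the floor (Fos, Jun, Junb, Ier2 and Atf3) the brightest probe read at most 23 in fibers and 8 in epithelium. Without a floor and with 17 added to every value, the log2 ratio was 0.16 for Fos, 1.15 for Jun, 0.06 for Junb, -0.07 for Ier2 and 0.10 for Atf3, values that rest on background signal. No ratio was given for them otherwise, and the values show only that a difference was not detectable with these probes. With a single probe for 8 of the 9 members, a probe that hybridises poorly cannot be told apart from a transcript at a low level.

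**Figure D2:**
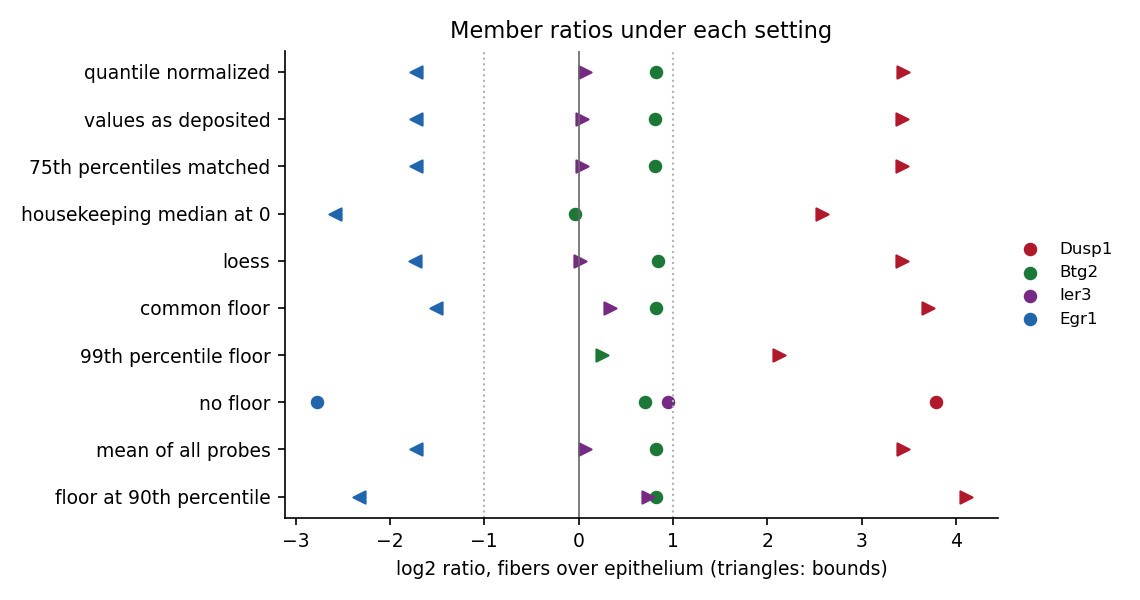
Log2 ratio of fibers over epithelium (horizontal axis) for the 4 measured members under quantile normalization and 9 alternative settings (rows). Circles are ratios, triangles are bounds pointing to the brighter tissue, and dotted lines mark 2-fold. Dusp1 stays right of 2-fold and Egr1 left of it wherever they have a value, while Btg2 moves between 0.84 and -0.04.

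Of 5 EGR family and NAB corepressor genes with a named probe, 1 was above the floor, and none passed 2-fold. That gene was Nab1, a corepressor that binds EGR proteins, which read 76 in fibers and 20 in epithelium (at least 1.71-fold higher in fibers), with its 5 other probes below the floor. Egr2, another EGR factor, read 10 in fibers and 13 in epithelium, and Egr3, Egr4 and Nab2 were also below the floor. Nab1 and Egr2 were named after seeing their values. Of 13 AP-1 family relatives, 4 passed a floor (30.8%, near the 33.9% of all named genes). Only Mafg, a small Maf factor, passed 2-fold, 602.5 in fibers and 117.5 in epithelium (5.13-fold). With the housekeeping scaling Mafg kept its direction (log2 1.52), and Atf2 and Maff passed 2-fold towards epithelium (log2 -2.15 and -1.55), Atf2 on another of its probes. Fosb read 11 in fibers and 18 in epithelium and Jund 11 and 8, both below the floor. Fosb, Jund, Atf2 and Maff were also chosen after their values were seen.

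Of 34 other immediate early and delayed response genes, 15 were above the floor (44.1%, against 33.9% of all genes). Of these, 4 were 2-fold or more higher in fibers and 1 in epithelium, against 15.6% and 19.0% of all measured genes. Gadd45g, a growth arrest gene, read 497.5 in fibers and 73 in epithelium (6.82-fold), and its second probe had a bound of 0.82 on the log2 scale. Klf4, a zinc finger factor of growth arrest, read 182.5 in fibers and 34 in epithelium (at least 4.10-fold). Its other 2 probes were below the floor. Ier5, which takes part in the heat shock response, read 149 in fibers and 33 in epithelium (at least 3.35-fold). Scaled to housekeeping genes, 2 of the 34 passed 2-fold towards fibers and 3 towards epithelium, so the balance of this list depended on the scaling. The other 2 genes past 2-fold were Zfp36l1 towards fibers (at least 2.40-fold) and Ccn2 towards epithelium (at least 2.22-fold).

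**Figure D3:**
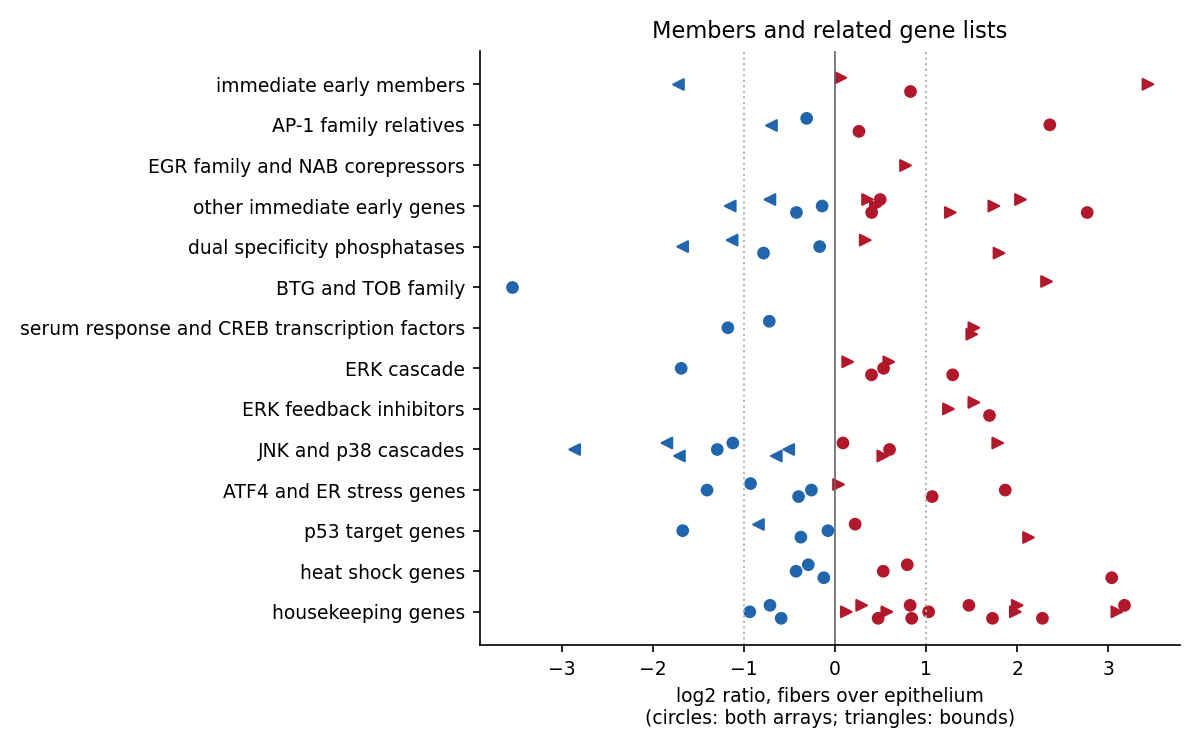
Log2 ratio of fibers over epithelium (horizontal axis) of each gene with a ratio (circles) or bound (triangles) in the immediate early list and 13 related or comparison lists (rows), with dotted lines at 2-fold. The members fall on both sides, as do most related lists, while 14 of 17 measured housekeeping genes lie right of 0.

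The other dual specificity phosphatases did not share one direction. Of 12 with a named probe, 7 were above the floor (58.3%, against 33.9% of all named genes). Of these 7, 1 was 2-fold or more higher in fibers and 2 in epithelium, against 15.6% and 19.0% of all measured genes. Dusp4, which inactivates ERK in the nucleus, read 0 in fibers and 102 in epithelium (at least 3.19-fold higher in epithelium), with its 3 other probes below the floor. Dusp7, which acts on ERK in the cytoplasm, was at least 2.19-fold higher in epithelium. For Dusp8 the probes disagreed, 155 in fibers and -5 in epithelium on one and 31 and 92 on the other, so no direction is given, although its brighter probe is the 1 counted towards fibers. Dusp6, the feedback phosphatase of ERK, was chosen after its values were seen and read 90 in fibers and 155 in epithelium (log2 -0.78). Scaled to housekeeping genes, no gene of the list was 2-fold higher in fibers and 5 were in epithelium, 1 of them Dusp8, whose other probe then represented it.

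Btg2 had relatives far apart. Of 5 other BTG and TOB genes, 2 were above the floor (40%, against 33.9% of all named genes). Btg1 read 63.5 in fibers and 744 in epithelium (11.7-fold higher in epithelium), and its second probe read 99.5 and 642. Tob1, which also recruits the deadenylase, read 222 in fibers and 5 in epithelium, at least 4.99-fold higher in fibers. Both kept a difference of 2-fold or more in the same direction when scaled to housekeeping genes.

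The upstream genes did not move one way. Their counts stand beside 33.9% of all named genes above a floor. Among all measured genes, 15.6% passed 2-fold towards fibers and 19.0% towards epithelium. Of 11 serum response and CREB factors, 4 were above the floor, 2 of them 2-fold or more higher in fibers and 1 in epithelium, against 0 towards fibers and 2 towards epithelium with the housekeeping scaling. Srf itself read 180 in fibers and 406.75 in epithelium (2.26-fold higher in epithelium), and its other probe was below the floor. Elk4, an ETS cofactor of SRF, had a bound towards fibers of at least 2.88-fold, and Ep300, a CREB coactivator, at least 2.83-fold, but neither reached 2-fold when scaled to housekeeping genes. The other Ep300 probes were below both floors. Of 10 ERK cascade genes with a named probe, 7 were above the floor. Nras, 2.45-fold higher in fibers, and Araf, 3.22-fold higher in epithelium, were the only genes of the list past 2-fold. The other Nras probes were below both floors. None of the other Araf probes passed the epithelium floor, and the one at 37 in fibers passed the fibers floor. Scaled to housekeeping genes, Nras no longer passed 2-fold (log2 0.42), and Araf did. Of 7 ERK feedback inhibitors and ETV factors, 4 were above the floor. Of these, 3 were 2-fold or more higher in fibers (Spry2, Spred2 and Spred3) and 0 in epithelium. None of the 3 passed 2-fold when scaled to housekeeping genes. The other Spred2 probes were below both floors. Of 15 JNK and p38 genes, which include kinases that DUSP1 inactivates, 11 were above the floor, 1 of them 2-fold or more higher in fibers and 5 in epithelium. Scaling to housekeeping genes gave 0 towards fibers and 7 towards epithelium. The largest was Map2k6, which activates p38, at 15 in fibers and 232 in epithelium (at least 7.25-fold), although its other 2 probes passed the fibers floor only.

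Stress response genes were set beside the members because Atf3, Dusp1 and Btg2 also respond to stress. For comparison, 33.9% of all named genes were above a floor. The shares of all measured genes past 2-fold were 15.6% towards fibers and 19.0% towards epithelium. Of 10 heat shock genes, 7 were above the floor and 1, the cochaperone gene Dnajb1, passed 2-fold, 1281.5 in fibers and 156 in epithelium (8.21-fold). The inducible Hspa1a and Hspa1b, chosen after their values were seen, read 1 and 0 in fibers and -1 and -4 in epithelium. Over the whole list the summed intensity was 3041.75 in fibers and 1560 in epithelium, and Dnajb1 made up most of that difference. The list's median log2 ratio was 0, with 3 genes higher in fibers and 3 in epithelium, and with the housekeeping scaling 1 passed 2-fold towards fibers and 2 towards epithelium. Of 10 genes of the ATF4 and endoplasmic reticulum stress list, 2 were 2-fold or more higher in fibers and 1 in epithelium, and of 10 p53 targets, 1 in each tissue. With the housekeeping scaling the counts were 1 towards fibers and 4 towards epithelium for the first list, and 1 and 3 for the p53 targets. The part of a stress response in the Dusp1 difference was not tested.

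The labels were checked with markers. All 8 lens fiber markers with a named probe were 2-fold or more higher in fibers, from Crybb1 at 18.5-fold to Bfsp2 at a bound of at least 4-fold. Of 7 lens epithelium markers 6 were 2-fold or more higher in epithelium, and Foxe3, a defining factor of lens epithelium, read 0 in fibers and -2 in epithelium. Some genes listed as markers of other tissues lay in the direction of Egr1, though most genes of those lists were below both floors. Of 6 periocular mesenchyme markers only Tfap2b was above the floor, 36 in fibers and 208.5 in epithelium. The list summed to 50 in fibers and 245.5 in epithelium, most of it Tfap2b, with Col1a1 at or below 0 on both arrays. Of 5 retina markers, Sfrp2 (139.5 in fibers and 1256 in epithelium) and Fgf15 were above the floor. Lhx2, Rax and Six6 were below it on both arrays, Six6 below 0. The list summed to 206 in fibers and 1336 in epithelium, most of it Sfrp2. Which cells gave the Sfrp2 and Tfap2b signal was not tested, and neither was the part of other tissues in the Egr1 difference.

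Summed over each list, blood cell markers read 212.5 in fibers and 141.5 in epithelium. Endothelium markers summed to 111.5 in fibers and 89 in epithelium, and macrophage markers to 80 in fibers and 97.5 in epithelium. All list sums counted negative values as 0. Most of these markers were below both floors: 3 of 5 for blood cells, 5 of 6 for endothelium and 3 of 5 for macrophages. The direction of the endothelium sum rests on Tek, which read 83.5 in fibers and 7 in epithelium. The housekeeping genes lay towards fibers, with a median log2 ratio of 0.84. Of 17 measured, 8 were 2-fold or more higher in fibers and none in epithelium, against 15.6% and 19.0% of all measured genes. Probes disagreed for Psmb2 and Chmp2a, both among the 8. Psmb2 was counted at 380 in fibers and 27 in epithelium, while its others read 178 and 58.5, and 189 and 188. Chmp2a was counted at 178 in fibers and 29 in epithelium, while another probe read 23 and 79.5. The scaling to housekeeping genes used the median of the 11 that were above both floors in the deposited values. It shifts a probe's log2 ratio or bound by -0.85 against the deposited values. A gene's value moved further where another of its probes became the brightest, as for Dusp8 and Atf2, and Ier3 lost its bound.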

How the data were processed

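The data are 2 arrays of mouse lens RNA at E12.5, 1 of fibers and 1 of epithelium, grouped by sample title. Intensities on a linear scale were deposited by the authors for 45281 probes. They were whole numbers down to -16 on both arrays, so background had been subtracted, and the methods of background correction, scaling and rounding are not stated here. The medians as deposited were 4 for fibers and 5 for epithelium. Array number limits the precision.

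Probes were named by the platform annotation (34885 with 1 symbol, 18 with several, which were not used, and 10378 unnamed here). Other genes were matched through gene IDs and synonyms of the RefSeq table. Arrays were quantile normalized with tied values averaged (Python 3.11.15, numpy 2.4.6). A gene was represented by its probe with the highest mean over both arrays. The floor, bounds and 2-fold rule are described with the results. The functions were tested on simulated data.

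The members and lists were chosen with earlier results of these data known. The named genes were all members, up to 4 per list with the largest difference past 2-fold, and markers. Rules for the closest genes did not apply, since none of Egr1, Dusp1, Fos and Jun was above the floor on both arrays. The alternatives changed the scaling (4), the floor (3, plus 1 added after the data were seen) and the probes of a gene (2).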

Additional observations from a re-analysis of the deposited data

How the results depend on the processing

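The count of members 2-fold or more higher in fibers was 1 in the setting reported and in 8 of the 9 alternatives that gave a count. With no floor and 17 added to every value it was 2, because Jun, below both floors, then had a log2 ratio of 1.15. The count towards epithelium was 1 in 8 of those alternatives and 0 with the floor at the 99th percentile of the silent probes, where Egr1 had no ratio. That floor was 80.7 for fibers and 110.5 for epithelium. Among the alternatives, matching the 75th percentiles repeated the deposited values, and the mean of all probes could change only Junb. The median log2 ratio of the measured members, 0.44 as reported, was not stable. It ran from -0.02 when scaled to housekeeping genes to 1.18 with the 99th percentile floor. These medians rest on different genes, only 2 members with that floor and all 9 with no floor. The standard deviation of 0.74 between probes of 1 gene is not an error for such a median. The log2 ratio of Dusp1 moved to 2.58 and that of Egr1 to -2.58 when scaled to housekeeping genes. Taking the second brightest probe left only Junb, below the floor, and so gave no value. No paired analysis was possible because each tissue has 1 array. Signal over background was the limit for 5 of the 9 members.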
